A study of Mus musculus with 6 samples.

Results

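The transcription factors Prrx1, Prrx2, Tbx1, Tbx2, Tbx3, Tbx18, Eya1, Pax9 and Twist1, which pattern the mesenchyme of the embryonic pharyngeal arches, were followed in the carotid bodies of the inbred mouse strains A/J and DBA/2J. The carotid body is an oxygen sensor that lies where the common carotid artery divides, and these strains are known to differ in how breathing responds to low oxygen. The genes were taken from a list of symbols, and every probe set whose platform annotation names one of them alone was used. They are 9 of 18193 genes named here, and 23 of 45037 probe sets that are not array controls. Of the 23, 14 were bright enough to be tested, among 27022 tested in all, and each of the 9 genes had at least 1 of them. RNA was measured on 3 arrays for each strain, from male mice 28 days old, with no treatment, allele or transgene given in the labels. Each array carried a pool: 20, 21 and 19 A/J mice gave 40, 42 and 38 carotid bodies, and 19, 18 and 19 DBA/2J mice gave 38, 36 and 38. The spread between arrays is therefore one between pools, and 3 arrays per strain limit the precision.

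The pharyngeal arches are outgrowths of the embryonic head and neck in which neural crest cells form mesenchyme around a core of mesoderm and an artery. The carotid body forms beside the artery of the third arch, and its sensory cells descend from the neural crest. Factors of the homeobox, T-box, paired-box and basic helix-loop-helix families set the identity of arch tissue in the embryo. Several of them remain active after birth in fibroblasts, vessel walls and muscle of the neck.

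None of the 14 tested probe sets passed the test across all probe sets, and the strains differed most in Eya1 and in Prrx1. Eya1 and the brightest probe set of Prrx1 were higher on every DBA/2J array than on any A/J array, and Tbx1 was lower on every DBA/2J array. The strain difference of Prrx1 itself depended on the probe set, with one of its probe sets lying lower in DBA/2J. The test was limma with Benjamini-Hochberg adjustment at 0.05, and 3.27% of all tested probe sets passed it, and 0 of 14 lies near that share. At an unadjusted p under 0.05, 6 of the 14 passed, 4 higher and 2 lower in DBA/2J, where 15.3% of all did. The arrays of the strains did not overlap in 5 of the 14, 3 higher and 2 lower, against 21.1% of all. In both counts several of the probe sets read Prrx1, in opposite directions, so they are not separate genes. The median log2 difference, DBA/2J minus A/J, was 0.05 over the 14 and 0.01 over all tested probe sets, on the scale log2(signal + 16). With 1 row a gene, the brightest tested probe set, 1 of the 9 genes passed, Prrx1, where 4.48% of 13006 genes did.

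**Figure D1:**
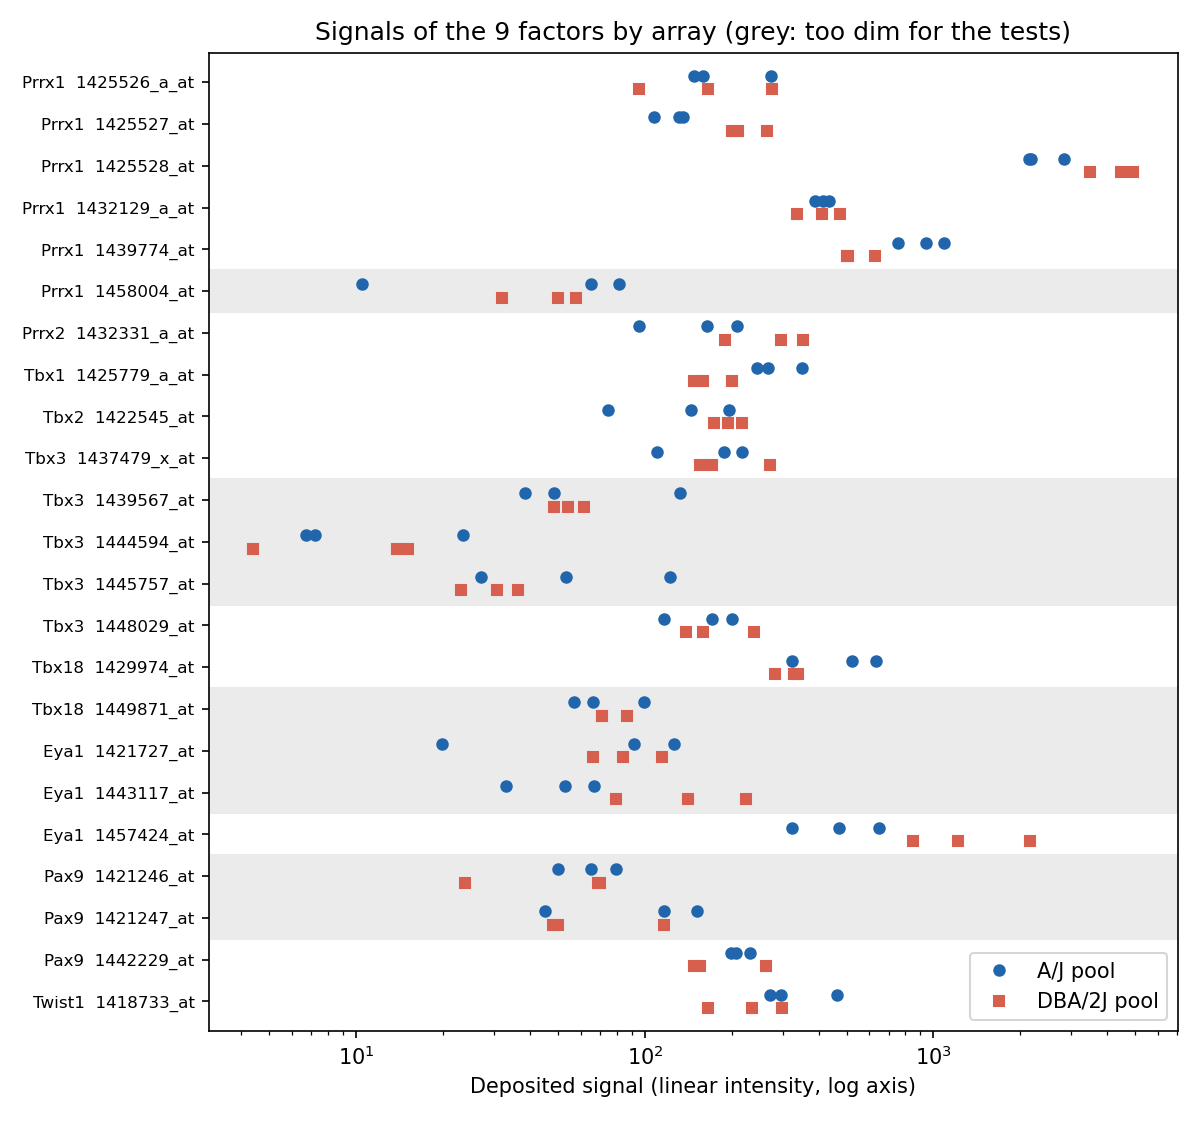
Signal on each array (linear intensity on a log axis) for all 23 probe sets, with circles for the 3 A/J pools and squares for the 3 DBA/2J pools; grey bands mark the 9 probe sets too dim for the tests. The strains lie apart for Prrx1 1425528_at, where DBA/2J runs from 3475.3 to 4930.5, and for Eya1 1457424_at, where it runs from 847.2 to 2160.5.

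Prrx1 and Prrx2 are paired-related homeobox factors of skull, face, limb and great-vessel mesenchyme, and their functions overlap in part in the mouse embryo. The 300 bases around a start site of each, 250 before and 50 after, are shown. The leading probe sets of these relatives had log2 differences of 0.84 and 0.80, but the Prrx2 arrays overlapped between strains and Prrx1 1439774_at gave -0.75. The sequences are RefSeq's on GRCm38.p6, from chr1:163313601-163313900 on the minus strand for Prrx1 and chr2:30845117-30845416 on the plus strand for Prrx2. Capitals mark the homeodomain core TAATTA, which reads the same on both strands.
Prrx1: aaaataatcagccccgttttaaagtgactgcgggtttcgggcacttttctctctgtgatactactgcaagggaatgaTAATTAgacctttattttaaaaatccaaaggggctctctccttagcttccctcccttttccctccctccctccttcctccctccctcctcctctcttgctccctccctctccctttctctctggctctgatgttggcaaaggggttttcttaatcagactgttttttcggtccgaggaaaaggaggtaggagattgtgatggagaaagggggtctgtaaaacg
Prrx2: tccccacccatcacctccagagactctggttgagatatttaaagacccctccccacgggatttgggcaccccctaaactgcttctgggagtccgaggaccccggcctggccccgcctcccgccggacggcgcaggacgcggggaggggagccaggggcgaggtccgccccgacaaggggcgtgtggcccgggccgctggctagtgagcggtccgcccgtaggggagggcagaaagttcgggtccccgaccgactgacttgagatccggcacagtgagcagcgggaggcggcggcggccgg
The Prrx1 window holds TAATTA and the Prrx2 window does not, while 5.29% of 32851 promoter windows hold it. The GC content was 47.7% for Prrx1 and 70.3% for Prrx2, with a median of 52.7% over all windows. In all, 6 of the 9 genes matched the table, with 7 windows. The sequence CATCTG, an E-box form, was found on either strand in the window of Tbx18 alone of these, and in 17.2% of all windows. The T-box site AGGTGTGA was in none of the 7 and in 1.28% of all. A match is a string of letters in the window and not a measured binding site.

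The brightest Prrx1 probe set, 1425528_at, read 2172.9, 2147.9 and 2828.9 on the A/J arrays and 4458, 4930.5 and 3475.3 on the DBA/2J arrays. The lowest DBA/2J pool thus lay above the highest A/J pool. The means were 2383 ± 386 and 4288 ± 742 (SD, n = 3), a log2 difference of 0.84 (SE 0.20, 95% interval 0.39 to 1.29). Its adjusted p was 0.0597 over probe sets and 0.0450 in the fit with 1 row a gene, so that Prrx1 lay at the threshold of the test. With the p of the probe set fit adjusted over genes it was 0.0510. The gene-level call was lost without A/J array 1, 2 or 3 (adjusted p = 0.149, 0.114 and 0.0733) and without DBA/2J array 1 or 2 (0.192 and 0.0687), and held without DBA/2J array 3 (0.0439).

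The other Prrx1 probe sets did not all follow it. 1425527_at read 135.3, 107.2 and 131.7 for A/J and 210.2, 199.7 and 265.4 for DBA/2J, again with no overlap (log2 difference 0.77, SE 0.23, adjusted p = 0.130). 1439774_at went the other way, with 756, 940.8 and 1091.7 for A/J and 501.2, 625.8 and 507.4 for DBA/2J (log2 difference -0.75, SE 0.21, adjusted p = 0.109). All of its DBA/2J pools lay below all of its A/J pools. 1432129_a_at and 1425526_a_at overlapped between strains, with log2 differences of -0.03 and -0.16. The dimmest, 1458004_at, was not tested and ran from 10.5 to 81.2 for A/J and from 32 to 57.7 for DBA/2J. The mean over the tested Prrx1 probe sets gave a log2 difference of 0.14 (SE 0.16, adjusted p = 0.752), so the direction stated for Prrx1 rests on the choice of probe set.

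Probe sets of one gene on one array share the RNA pool, so their difference within an array was tested as well, over all 9403 pairs of a further probe set with the brightest one of its gene. The log2 value of 1439774_at minus that of 1425528_at was -1.50, -1.18 and -1.36 on the A/J arrays. On the DBA/2J arrays it was -3.11, -2.95 and -2.74, well below every A/J value. The strain difference of this pair was -1.58 (SE 0.22, 95% interval -2.10 to -1.07, adjusted p = 0.0221), and it was the one pair called of 5 pairs in Prrx1 and Tbx3, where 0.872% of all pairs were. The size held on leaving out any array, from -1.68 to -1.49, but the adjusted p passed 0.05 without A/J array 1, 2 or 3 (0.0779, 0.0894 and 0.119) or DBA/2J array 1 (0.118). The pairs with 1425526_a_at and 1432129_a_at did not pass, with intervals of -1.90 to -0.11 and -1.48 to -0.25 (adjusted p = 0.432 and 0.298). Prrx1 is known to make splice forms with different ends. Which of them each probe set reads was not analysed here, nor whether the probes match the sequence of both strains.

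**Figure D2:**
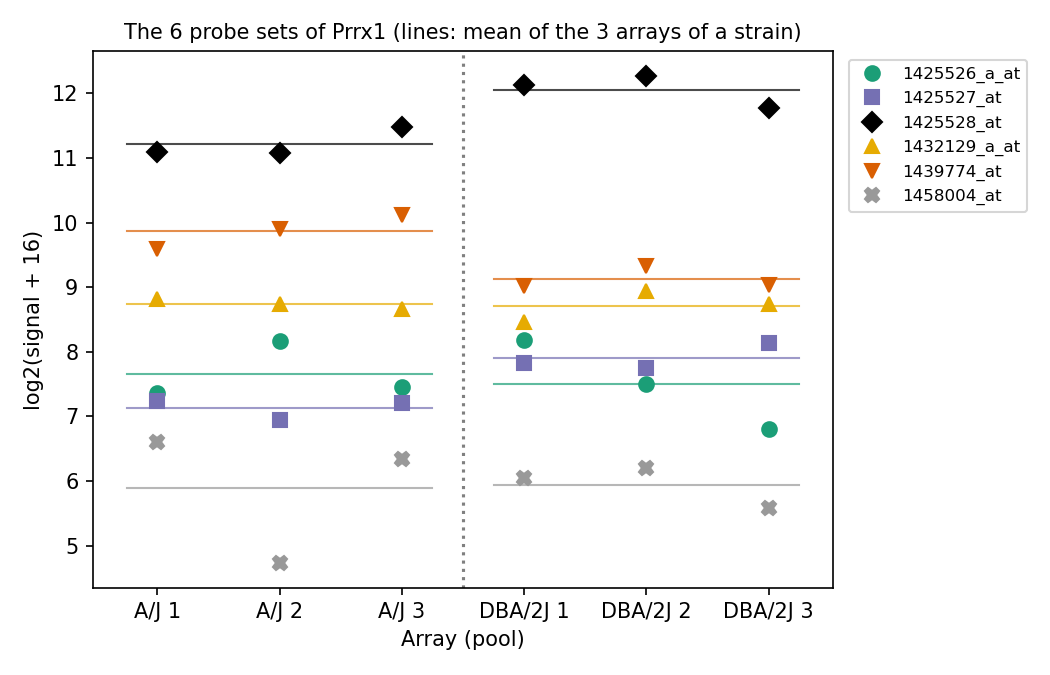
Log2(signal + 16) of the 6 Prrx1 probe sets on each of the 6 arrays, with a line at the mean of each strain's 3 arrays. The black diamonds (1425528_at) are higher and the orange triangles (1439774_at) lower in DBA/2J, so the mean of 1439774_at minus 1425528_at goes from -1.35 to -2.93 log2 units.

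Among the 12997 other genes, those whose 6 log2 values, centred on their mean, came closest to 1425528_at were Tusc3, Otub2 and Cyth3. Their root mean square differences from it were 0.0460, 0.0575 and 0.0936 log2 units over the 6 arrays. Tusc3 encodes a subunit of the oligosaccharyltransferase complex, Otub2 a deubiquitinase and Cyth3 an exchange factor for ARF proteins.

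Prrx2, on its single probe set, read 95.4, 164.1 and 209.3 for A/J and 353.5, 296.9 and 190.3 for DBA/2J. The third DBA/2J pool lay within the A/J range, so the strains overlapped. The log2 difference was 0.80 (SE 0.33, 95% interval 0.06 to 1.53, adjusted p = 0.277).

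Eya1 is a coactivator and phosphatase; mice without it lack thymus and parathyroid, and it also drives genes of fast muscle fibres. Its brightest probe set, 1457424_at, read 645.8, 323.2 and 470.3 for A/J and 1214.4, 847.2 and 2160.5 for DBA/2J. The strains did not overlap, and the DBA/2J pools differed among themselves by more than the A/J pools did. The log2 difference was 1.47 (SE 0.36, 95% interval 0.66 to 2.28), the largest in size among the 14, with an adjusted p of 0.0674 over probe sets and 0.0523 over genes. Without DBA/2J array 2 it was 1.78 and passed (adjusted p = 0.0176 over probe sets), and it did not pass without any other single array (0.0960 to 0.198), falling to 1.11 without DBA/2J array 3. A dim probe set, 1443117_at, ran the same way, with 66.9, 33.1 and 52.9 for A/J and 79.2, 141.5 and 224.2 for DBA/2J. These groups did not overlap either, and the log2 difference in the fit with no filter was 1.23 (adjusted p = 0.227). The remaining one, 1421727_at, overlapped, with 19.9 to 126 for A/J and 66 to 115.1 for DBA/2J.

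Markers of other cell types moved between the strains beside these differences, and in bulk tissue fewer cells of a type and less RNA per cell cannot be told apart. The 20 type I (glomus) cell markers with a probe set, from a list of 22, summed to 0.176% to 0.201% of the array signal for A/J and 0.330% to 0.363% for DBA/2J. Th and Chga, which define these cells, had means of 4001 and 732 for A/J and 7220 and 3585 for DBA/2J. Of the 20 markers, 11 rose, 0 fell and 9 missed the threshold. Those 9 include Th (log2 difference 0.88, adjusted p = 0.103) and Dbh (0.04). The 24 fibroblast markers summed to 0.608% to 0.636% for A/J and 0.556% to 0.656% for DBA/2J, ranges that overlap, and of the 24, 2 rose, 0 fell and 22 missed the threshold; the median log2 difference over the list was -0.07. The 2 were the matrix genes Fbln2 and Fmod (1.09 and 1.44, adjusted p = 0.0268 and 0.00986), while Dcn and Pdgfra gave -0.15 and 0.07. The 30 skeletal muscle markers summed to 0.520%, 0.200% and 0.431% on the A/J arrays and to 0.0106% to 0.0188% in DBA/2J. The 12 adipocyte markers with a probe set summed to 0.193% to 0.264% of the signal on the A/J arrays and 0.0908% to 0.148% on the DBA/2J arrays, where 5 of 11 tested fell. The 12 type II and Schwann cell markers with one summed to 0.168% to 0.203% and 0.127% to 0.138%, and 3 of them fell. The 13 thymus, parathyroid and thyroid markers with a probe set, of 16, were dim in both strains (0.00488% to 0.00613% and 0.00557% to 0.00760%). The part of these markers in the differences of Prrx1 and Eya1 was not tested.

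Tbx1, the T-box gene of pharyngeal mesoderm and endoderm that is required for the arch arteries and for muscles of the jaw and neck, was the one T-box member whose arrays lay apart. It read 266.1, 349.4 and 244.1 for A/J and 158.8, 199.7 and 148.1 for DBA/2J, so that every DBA/2J pool was below every A/J pool. The log2 difference was -0.71 (SE 0.23, 95% interval -1.23 to -0.18, adjusted p = 0.170). The part of skeletal muscle in the difference was not tested.

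Tbx18, a factor of the epicardium, the sinus node and the mural cells of vessels, leaned lower in DBA/2J without separation. Its tested probe set 1429974_at read 322.3, 633.7 and 523.2 for A/J and 328.7, 338.9 and 281.4 for DBA/2J. A/J array 1 lay among the DBA/2J arrays, and the log2 difference was -0.57 (SE 0.26, 95% interval -1.16 to 0.02, adjusted p = 0.353). The dim 1449871_at showed 56.7 to 99.4 for A/J and 71 to 86.8 for DBA/2J. The 15 smooth muscle and pericyte markers summed to 0.204% to 0.245% for A/J and 0.200% to 0.249% for DBA/2J. Of the 14 of these markers that were tested, 0 passed, 10 had log2 differences below 0 and 4 above. Their median was -0.26. Among them Acta2 had means of 18080 for A/J and 15040 for DBA/2J. Rgs5, which also counts in the type I cell sum, had 13370 and 17270. The part of these markers in the difference of Tbx18 was not tested.

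Tbx2 and Tbx3 are closely related repressors that hold back differentiation in heart, limb and other tissues. Tbx2 read 74.3, 195.8 and 144.5 for A/J and 173.4, 216.4 and 194.6 for DBA/2J, with an overlap set by A/J array 2 (log2 difference 0.53, SE 0.32, adjusted p = 0.511). The tested probe sets of Tbx3, 1437479_x_at and 1448029_at, gave 0.21 and 0.12 (adjusted p = 0.828 and 0.9003), with intervals from -0.49 to 0.91 and from -0.53 to 0.77. The first bears the suffix by which the platform marks probes that may also match other transcripts. The other 3 Tbx3 probe sets were dim, none above 132.7 on any array, and all overlapped.

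Pax9, a paired-box factor of the pharyngeal pouches and of tooth mesenchyme, read 199.5, 230.7 and 206.6 for A/J and 148.5, 263.4 and 155.8 for DBA/2J on its tested probe set. The highest and the lowest array were both DBA/2J, and the log2 difference was -0.19 (SE 0.26, adjusted p = 0.804). Its dim probe sets 1421246_at and 1421247_at overlapped between the strains as well. Twist1, the helix-loop-helix factor of cranial mesenchyme, read 271.3, 464.9 and 297.2 for A/J and 235.5, 298.8 and 165.4 for DBA/2J. The strains overlapped through DBA/2J array 2, with a log2 difference of -0.53 (SE 0.28, 95% interval -1.17 to 0.11, adjusted p = 0.440).

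**Figure D3:**
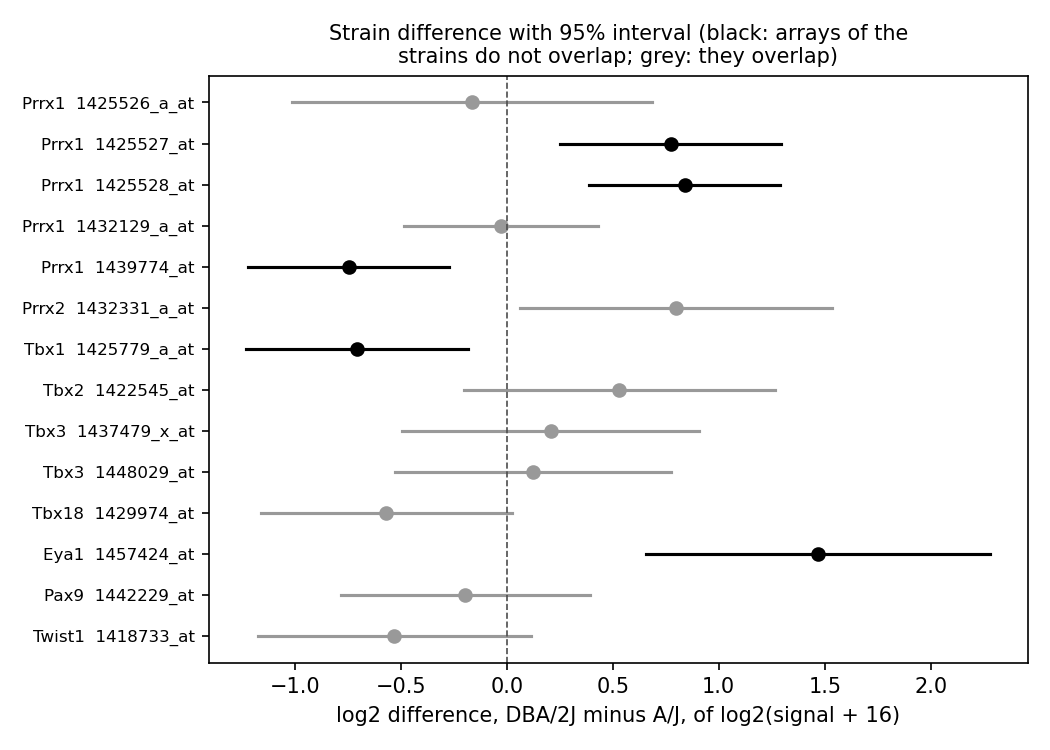
Log2 difference, DBA/2J minus A/J, with its 95% interval from the fit, for the 14 tested probe sets; black marks those whose arrays do not overlap between strains, grey those that do. Eya1 stands farthest from 0 at 1.47, and the 5 tested Prrx1 probe sets run from -0.75 to 0.84.

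The series names genes by its own rule, at least 6 of 9 array pairs past 1.5-fold and a p under 0.05, and an unadjusted limma p stands in here for its p. By it, 4 of the 14 probe sets were higher in DBA/2J, where 5.23% of all were, and 2 were lower, where 4.86% were. The 4 were 1425527_at and 1425528_at of Prrx1, Prrx2 and 1457424_at of Eya1, and the 2 were 1439774_at of Prrx1 and Tbx1. Over the 14, DBA/2J arrays 1, 2 and 3 were the highest of their strain for 2, 9 and 3 probe sets, and A/J arrays 1, 2 and 3 for 5, 6 and 3. A/J array 1 and DBA/2J array 3 were each the lowest of their strain for 7. Several of the 14 read the same gene, and these shares were not computed over all probe sets.

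Genes that work with these factors were drawn from lists written for this work, and each is given by its brightest tested probe set with p adjusted over genes. All 8 called genes among them were higher in DBA/2J. Over all 13006 genes 334 were called higher (2.57%) and 249 lower (1.91%), and each list is to be read against these shares. The type I cell marker sum was also higher on every DBA/2J array, and its part in these lists was not tested. Of 28 tested factors of arch mesenchyme and neural crest, 2 rose, 0 fell and 26 missed the threshold; the median log2 difference was 0.12, against 0.03 over all genes. Hand2, a helix-loop-helix factor that pairs with Twist1 and is also a type I cell marker, rose from 1480 ± 428 to 5059 ± 1951 (log2 difference 1.71, SE 0.32, adjusted p = 0.0182). Tcf21, a helix-loop-helix factor of mesenchyme in visceral organs and branchial muscle, rose from 102 ± 18.1 to 287 ± 53.4 (1.36, SE 0.25, adjusted p = 0.0153), while its other tested probe set gave 0.05.

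Of 7 tested Pax, Eya, Dach and related factors, 0 passed in limma, and 5 had differences below 0, with a median of -0.16. The 1 with an unadjusted limma p under 0.05 was Six2 (log2 difference -0.76), lower on every DBA/2J array than on any A/J array. Of 4 other T-box genes tested, 1 rose, Tbx20, a transcriptional repressor that heart development requires. It read 803.5, 1084.9 and 1312.9 for A/J and 2092.4, 2005.9 and 2312.9 for DBA/2J (log2 difference 1.02, SE 0.21, adjusted p = 0.0289), and its other tested probe set gave 0.28.

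Of 15 tested partners of Twist and homeodomain proteins, 3 rose, 0 fell and 12 did not pass, with a median of 0.43, against 0.03 over all genes. The 3 were the inhibitors Id1, Id2 and Id3, which bind the E proteins that Twist1 needs as partners, with log2 differences of 1.03, 1.07 and 1.21 (adjusted p = 0.0455, 0.0120 and 0.00408). The other tested probe set of Id2 gave 0.53. The E protein Tcf12 had 3584 ± 1411 for A/J and 4382 ± 2256 for DBA/2J, with an SD larger than the difference of the means.

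Of 26 tested arch signals and receptors, 2 rose and 0 fell, with a median of 0.05. Bmp7, a bone morphogenetic protein, rose from 452 ± 51.2 to 825 ± 78.0, and Wnt5a, a signal of outgrowing mesenchyme, from 467 ± 144 to 964 ± 33.4, with log2 differences of 0.85 and 1.07 (adjusted p = 0.0378 and 0.0452). The other tested probe sets of Wnt5a gave -0.11 and 0.85. Pdgfra and Fgf10 did not pass (0.07 and 0.04). Of 13 tested genes linked to the factors in the literature, none passed, and the median was 0.03. Among them Tnc, a matrix gene bound by Prrx1, had 240 ± 181 for A/J and 327 ± 202 for DBA/2J, and Postn, a matrix gene under Twist1, had 9911 ± 1360 and 7645 ± 823 (log2 difference -0.37, adjusted p = 0.251).

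**Figure D4:**
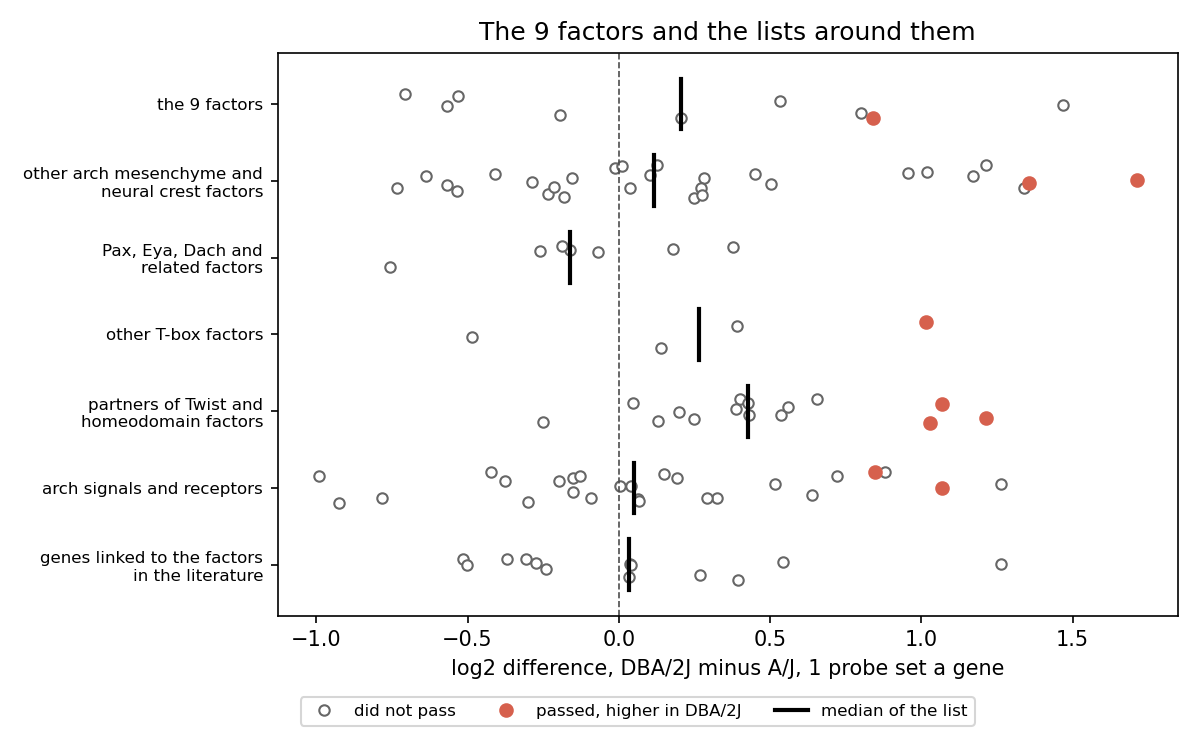
Log2 difference, DBA/2J minus A/J, of each tested gene (its brightest tested probe set) in the 9 factors and in 6 lists around them; filled points passed the test over genes, open points did not, and bars mark medians. The 9 filled points, Prrx1 among them, all lie above 0, and the medians run from -0.16 to 0.43.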

How the data were processed

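RNA was hybridised to 6 Affymetrix Mouse 430 2.0 arrays, 3 pools for each strain. The authors deposited 1 intensity per probe set and array on a linear scale; no source used here names the software. Across 45101 probe sets the 2% trimmed mean is 500 on every array and the medians run from 163.5 to 183.1, so the deposited intensities were taken as already scaled and used with no further normalization. The 64 control probe sets were left out. Genes were named from the platform annotation, with 34945 probe sets naming 1 gene, 932 several and 9160 not listed; symbols of 34741 were matched to RefSeq.

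Log2(signal + 16) was fitted with limma 3.58.1 in R 4.3.3 (lmFit, eBayes with an intensity trend) on the 27022 probe sets in the upper 60% by mean, as DBA/2J minus A/J, with Benjamini-Hochberg adjustment over all of them. For genes the fit was run again on the brightest tested probe set of each. Pairs were tested within arrays in the same way, without the trend. The text names every member by its probe sets, the 3 genes whose pattern is nearest to Prrx1, and the called genes of each list with members of known role. The members and lists were chosen with earlier results of these data known. The fits were tested on simulated data. Alternatives covered scaling, pseudocount, filter, trend, array weights, blocks and left-out arrays. Figures were drawn with matplotlib 3.10.9 in Python 3.11.15.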

Additional observations from a re-analysis of the deposited data

How the results depend on the processing

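All 18 alternatives of the probe set fit kept the sign of Prrx1 1425528_at (0.66 to 0.98), Prrx1 1439774_at and Eya1 1457424_at (1.11 to 1.96), and the 17 that could alter the pair fit, which has no trend, kept that of the Prrx1 pair (-1.75 to -1.49). Member probe sets called, 0 in the fit as reported, were 1 under quantile normalization (Prrx1 1425528_at), 5 with array weights, 1 with both arrays numbered 2 left out (Eya1), 6 by the rule stated by the series, and 0 to 1 on leaving out single arrays. Member genes called, 1 as reported, were 0 under median scaling, no filter, no intensity trend, A/J arrays 1 and 3 left out together, the mean of all kept probe sets of a gene, and the p of the probe set fit adjusted over genes. They were 2 in the upper 40% of probe sets (Prrx1 and Eya1) and 3 with array weights (Prrx1, Eya1 and Tbx1). Leaving out single arrays gave 0 to 1, with Eya1 called without DBA/2J array 2 and Prrx1 without DBA/2J array 3. With both arrays numbered 2 left out, the 1 gene called was Eya1 and not Prrx1 (adjusted p = 0.0052 and 0.0732). Probe set pairs called, 1 as reported, were 0 with no filter, with A/J arrays 1 and 3 left out, and with both arrays numbered 2 left out, and 0 to 1 without single arrays. The median of the members, 0.05, was -0.28 in the upper 40%, where 6 members were left. Fewer probe sets or arrays enter several of these fits; the cause of the other changes was not tested.

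Array titles share numbers between strains, and the labels do not say what the numbers mark, so they were not taken as pairs. The deviations of same-numbered arrays from their strain mean correlated at -0.26 and 0.035, and those of other array pairs at -0.264 to 0.202. With 3 arrays per strain, these values cannot decide whether the arrays were paired. With the number as a fixed replicate block, 0 member probe sets, 0 member genes and 0 pairs were called, and 0 of all probe sets. That fit leaves 1 residual degree of freedom, which limits what it can call, and the cause of the 0 was not tested. With the number as a random block in limma, 0 member probe sets and 848 of all probe sets were called. The gene Prrx1 (adjusted p = 0.0488) and the Prrx1 pair (adjusted p = 0.019) were called there too. Over all probe sets 883 were called as reported, 3007 with array weights, 2143 without both arrays numbered 2, 78 without A/J arrays 1 and 3, and 345 to 1338 without single arrays. The gene-level alternatives and, for pairs, median scaling and array weights were chosen after seeing the data. Dim probe sets limit what can be seen of Tbx3, Pax9 and Tbx18.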
